A study of Mus musculus with 6 samples.

Results

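CDK inhibitors and D-type cyclins set the pace at which a cell leaves the first gap phase of its cycle, and 10 genes of this system were measured in Lgr5-positive and Lgr5-negative cells of the mouse mammary gland. They were the CIP/KIP inhibitors Cdkn1a (p21), Cdkn1b (p27) and Cdkn1c (p57), the INK4 inhibitors Cdkn2a, Cdkn2b, Cdkn2c and Cdkn2d, and the cyclins Ccnd1, Ccnd2 and Ccnd3. The genes were taken as a named family and found through the RefSeq transcript that the array gives for each probe. All 10 were among the 20887 genes that could be named, they had 14 probes, and all 10 were among the 15680 genes tested.

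The 6 samples came from virgin C57/B6 mice, and each carried the lgr5-egfp-ires-creert2 allele, which places EGFP and an inducible Cre under the Lgr5 promoter. Cells that were Lin-negative, CD24-positive and CD29-high, the gate called P4, were split into 3 Lgr5-positive samples (EGFP-positive) and 3 Lgr5-negative samples (EGFP-negative). The allele is thus shared by both fractions, and EGFP reports the activity of the locus, so an EGFP-negative cell need not lack Lgr5 transcript. The age of the mice, the number of mice behind a sample and the markers behind Lin are not given in the sources used here. Every sample was labelled with Cy5 and hybridised beside a universal mouse reference RNA from 11 cell lines labelled with Cy3. Values below are log2 (Cy5/Cy3), the level of a gene in the sample relative to that reference, unless stated otherwise.

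D-type cyclins are made in response to mitogens and bind Cdk4 or Cdk6. The complex phosphorylates Rb and releases E2F factors that switch on genes of DNA replication. INK4 proteins block Cdk4 and Cdk6 directly, whereas CIP/KIP proteins act on cyclin-CDK complexes more broadly and also help cyclin D complexes to assemble. In the mouse mammary gland Ccnd1 is known for its need in lobuloalveolar growth during pregnancy. High CIP/KIP and low cyclin D levels are textbook features of resting cells, and the labels make no statement on whether the sorted cells were resting.

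The arrays were of one slide and one scan. Median Cy5 signal was 137 to 169 on Lgr5-positive arrays and 200 to 278 on Lgr5-negative arrays, against a median local background of 64 to 76, and no Cy5 spot was saturated. Lgr5 itself had log2 ratios of 4.24, 5.36 and 5.01 in Lgr5-positive replicates 1 to 3, against 2.84, 4.04 and 3.31 in Lgr5-negative ones. All 12 basal markers tested, keratins and contractile genes among them, passed the filter on dim probes, and their mean log2 ratio was 3.59 to 3.77 on Lgr5-positive arrays and 3.12 to 3.34 on Lgr5-negative arrays. The labels do not say that replicates came from separate animals, so p-values measure the spread between these samples, which may be technical.

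The promoters of the Cdkn2a and Cdkn2b locus are shown because these neighbouring inhibitors had differences of opposite sign in the main processing. In RefSeq 1 long noncoding RNA gene lies between them. Cdkn2a was, however, at -0.048 under median centring and at -0.053 after quantile normalization. The difference of Cdkn2a passed neither test described below, and that of Cdkn2b passed only when arrays were paired by replicate number. Each window holds 250 bases before and 50 bases after a transcription start, written 5′ to 3′ from RefSeq on GRCm38.p6. The Cdkn2b window is chr4:89310983-89311282 on the minus strand. The distal Cdkn2a window, chr4:89294570-89294869 on the minus strand, lies at the start known for the p19Arf transcript, and the proximal one, chr4:89282143-89282442 on the minus strand, at the start known for p16Ink4a.
Cdkn2b: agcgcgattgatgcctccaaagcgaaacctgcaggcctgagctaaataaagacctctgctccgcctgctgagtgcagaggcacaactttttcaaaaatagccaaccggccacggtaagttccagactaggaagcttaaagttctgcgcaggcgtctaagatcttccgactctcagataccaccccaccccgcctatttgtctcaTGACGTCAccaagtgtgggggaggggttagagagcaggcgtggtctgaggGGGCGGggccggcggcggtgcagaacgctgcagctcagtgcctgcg
Cdkn2a distal: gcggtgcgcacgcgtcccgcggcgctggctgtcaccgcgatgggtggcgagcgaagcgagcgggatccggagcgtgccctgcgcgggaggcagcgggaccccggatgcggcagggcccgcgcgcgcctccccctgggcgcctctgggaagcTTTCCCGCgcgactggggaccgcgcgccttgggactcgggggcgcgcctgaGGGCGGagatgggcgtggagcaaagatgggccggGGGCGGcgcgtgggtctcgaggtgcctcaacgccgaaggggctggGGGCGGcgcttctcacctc
Cdkn2a proximal: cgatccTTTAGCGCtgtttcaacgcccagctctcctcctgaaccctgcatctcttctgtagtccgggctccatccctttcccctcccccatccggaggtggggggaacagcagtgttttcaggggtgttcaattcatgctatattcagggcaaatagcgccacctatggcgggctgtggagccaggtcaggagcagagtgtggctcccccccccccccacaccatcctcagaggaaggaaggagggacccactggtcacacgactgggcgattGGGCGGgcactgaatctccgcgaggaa
Capitals mark matches, on either strand, to the GC box GGGCGG, a broad form of the E2F motif, TTTNNCGC, the AP-1 motif TGANTCA or the cyclic AMP response element TGACGTCA. N stands for any base, and none of these matches overlap in the windows shown. The Cdkn2b window held 1 GC box and 1 cyclic AMP response element. The distal Cdkn2a window held 3 GC boxes and 1 E2F match, and the proximal one 1 of each. Windows were given for 7 of the 10 genes, 11 windows in all, of which 9 held a GC box, 2 an E2F match, 1 a cyclic AMP response element and 0 an AP-1 match. Of 32851 mouse promoter windows of the same length, 35.7% held a GC box, 5.17% an E2F match, 1.79% a cyclic AMP response element and 7.81% an AP-1 match. A match describes letters in the window and shows no binding.

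The comparison asked how Lgr5-positive cells differ from the other cells of the same gate. Among the 10 genes, Ccnd1, Ccnd2, Cdkn2b, Cdkn1b and Cdkn2c had lower values on every Lgr5-positive array than on any Lgr5-negative array. No gene had higher values without overlap on the probe that stands for it, the brightest one, although the dimmer probe of Cdkn2a did. With the group as the only term, 0 of the 10 passed limma's test at a Benjamini-Hochberg adjusted p under 0.05 over all genes, where 0.612% of all genes did (0.0255% higher and 0.587% lower). At an unadjusted p under 0.05 there were 3 of 10 (Ccnd1, Ccnd2 and Cdkn2b), all lower, against 8.2% of all genes (6.23% lower). With the replicate number as a block, which sets each Lgr5-positive array against the Lgr5-negative array of the same number, 2 of 10 passed, Ccnd1 and Cdkn2b, both lower, against 7.72% of all genes (2.1% higher and 5.61% lower), and 5 of 10 had an unadjusted p under 0.05, against 21.3%. The 5 genes whose groups did not overlap stand against 12.2% of all genes (4.06% higher and 8.14% lower). An exact two-sided permutation test over arrays gave p = 0.1 for each of these 5 genes, the smallest p that 3 arrays against 3 allow. Groups without overlap always give that p, so the test only restates the lack of overlap. The median log2 fold change was -0.15 over the 10 genes and 0.01 over all genes tested.

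**Figure D1:**
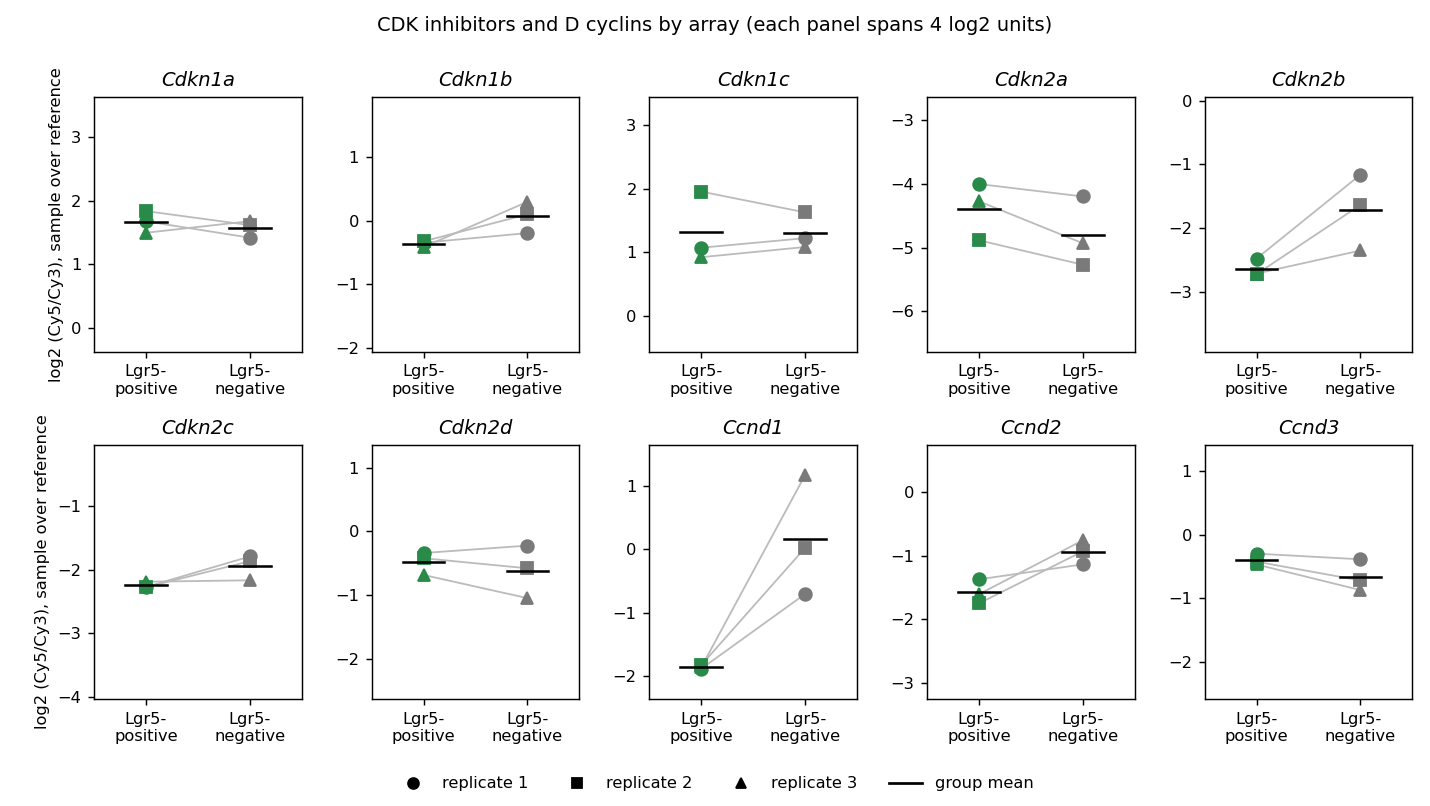
Log2 (Cy5/Cy3) of each gene on the 6 arrays, one panel per gene, with Lgr5-positive arrays in green on the left and Lgr5-negative arrays in grey on the right. Marker shapes are replicate numbers, grey lines join arrays of the same number, black bars are group means, and each panel spans the same range. Ccnd1 lies between -1.88 and -1.82 on the 3 Lgr5-positive arrays and between -0.70 and 1.17 on the Lgr5-negative arrays.

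Ccnd1, the D cyclin most tied to mammary growth, had the largest difference of the 10. Its log2 ratios were -1.88, -1.82 and -1.86 in Lgr5-positive replicates 1 to 3, against -0.70, 0.02 and 1.17 in Lgr5-negative replicates 1 to 3. The Lgr5-positive arrays were nearly alike and all lay below the reference, whereas the Lgr5-negative arrays spread widely on both sides of it. Spot brightness before normalization showed the same split, with Cy5 medians of 862, 1566 and 1218 on Lgr5-positive arrays and 3213, 10622 and 19141 on Lgr5-negative arrays. The reference channel of that spot varied little, with Cy3 medians of 10452 to 10885 on Lgr5-positive arrays and 9638 to 10528 on Lgr5-negative arrays. Before normalization Cy5 was also lower over all probes, with array medians of 137 to 169 on Lgr5-positive arrays and 200 to 278 on Lgr5-negative arrays.

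Ccnd1 averaged -1.85 ± 0.029 in Lgr5-positive cells and 0.16 ± 0.94 in Lgr5-negative cells (SD, n = 3 each). The log2 fold change was -2.01 (SE 0.44, 95% interval -3.06 to -0.97), or 4.04-fold lower, with an adjusted p in limma of 0.139. With the replicate block Ccnd1 fell (SE 0.32, adjusted p = 0.014). The within-pair differences were -1.18, -1.85 and -3.02 for replicates 1 to 3, so every pair had the same sign. Without replicate 2 the blocked value was -2.10 and the adjusted p 0.095. Among all genes tested Ccnd1 stood at percentile 1.08 of the log2 fold changes.

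**Figure D2:**
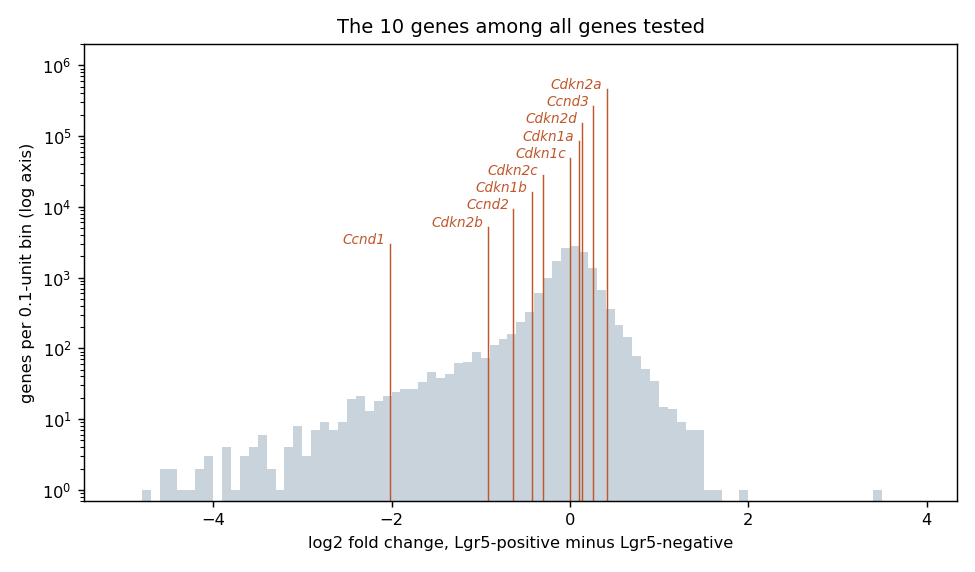
Histogram of log2 fold changes, Lgr5-positive minus Lgr5-negative, over the 15680 genes tested, in bins of equal width with the number of genes on a log axis. Vertical lines mark the 10 genes, with heights that only space the names, of which Ccnd1 at -2.01 lies in the lower tail and the others lie between -0.92 and 0.41.

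In these sorted samples fewer cells of a type and less RNA per cell cannot be told apart, and markers of other cell types moved on the same arrays. Of 12 endothelial markers tested, Tie1 passed the filter only through the Lgr5-negative arrays. Of the other 11, 10 were lower in all 3 pairs, 2 fell with the group alone and 8 with the block. Of all genes 21.8%, 0.587% and 5.61% did so. The mean log2 ratio of the 12, which include Tie1, was 1.31 to 2.39 on Lgr5-positive arrays and 3.23 to 3.82 on Lgr5-negative arrays. Erg and Tie1 were, on all 3 Lgr5-positive arrays, not well above background. Without Tie1 the median of the other 11 differed by -2.13, -1.17 and -2.97 in pairs 1 to 3. Of 14 luminal markers 11 had negative values and 6 fell with the block, with a mean log2 ratio of 0.83 to 1.38 on Lgr5-positive arrays and 1.42 to 1.95 on Lgr5-negative arrays. Csn2 was not well above background in either fraction. Pericyte markers had a mean of 0.14 to 0.34 on Lgr5-positive arrays and 0.66 to 0.83 on Lgr5-negative arrays, 7 of 8 had negative values, and Kcnj8 was, on the Lgr5-positive arrays, not well above background. For fibroblast markers the means were -0.54 to -0.29 on Lgr5-positive arrays and -0.37 to 0.0063 on Lgr5-negative arrays, with negative values in 7 of 10, and Dpt was, on the Lgr5-positive arrays, not well above background. Leukocyte markers averaged -0.47 to 0.18 on Lgr5-positive arrays and -0.54 to 0.14 on Lgr5-negative arrays, with negative values in 4 of 12, and Lyz2 was not well above background in either fraction. The part of these cell types in the values of Ccnd1 and the other 9 genes was not tested.

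The lists differed in how far their members moved together, and the markers named here are the ones of lowest p with the block, not typical members. The endothelial median was -2.15 without Tie1, and Plvap, of endothelial diaphragms, fell by 2.41 (adjusted p = 0.0024 with the block; -1.02 on a second probe). The luminal median was -0.63, and Areg, a growth factor that estrogen induces in luminal cells, fell by 2.25 (adjusted p = 0.0021 with the block). The pericyte median was -0.50, and Notch3, a receptor of mural cells, fell by 0.89 (adjusted p = 0.018 with the block). Fibroblast markers went both ways with the block, 1 higher and 4 lower, around a median of -0.28. Dcn, a fibroblast proteoglycan, fell by 1.37 (adjusted p = 0.0032 with the block), whereas Fbln1, a matrix fibulin, rose by 0.99 (adjusted p = 0.035 with the block). Fbln1 was at 0.39 on a second probe, 0.50 under median centring of the arrays and 0.52 without Lgr5-negative replicate 3. Leukocyte markers had a median of 0.13 and positive values in 8 of 12, and Cd74, the invariant chain of antigen presentation, was the single call and fell by 1.04 (adjusted p = 0.022 with the block). Of 12 basal markers 4 rose with the block and 0 fell, against 2.1% and 5.61% of all genes. Among the 4 was Oxtr, the oxytocin receptor of myoepithelial cells, which rose by 0.76 (adjusted p = 0.021 with the block). The basal differences depended on the scaling, since under median centring, which moved the median of all genes to -0.29, the 4 were at 0.29 (Oxtr), 0.20 (Krt17), 0.22 (Cnn1) and 0.69 (Cdh3).

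Ccnd2 was lower by a smaller amount. Log2 ratios were -1.37, -1.75 and -1.61 in Lgr5-positive replicates 1 to 3, against -1.14, -0.93 and -0.76 in Lgr5-negative replicates 1 to 3. The groups did not overlap, and all 6 arrays lay below the reference. The difference was -0.63 (SE 0.19, 95% interval -1.08 to -0.19), with an adjusted p in limma of 0.316 with the group alone and 0.061 with the block, so it did not pass. It did pass in the blocked fit without replicate 1 (-0.83, adjusted p = 0.014), with array weights (-0.66, adjusted p = 0.037) and under median centring of the arrays (-1.06, adjusted p = 0.0024), where 36.9% of all genes passed.

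Ccnd3, the third D cyclin and a partner of the same kinases, had the opposite sign, except under median centring of the arrays (-0.17). On its brighter probe it had -0.30, -0.43 and -0.47 in Lgr5-positive replicates 1 to 3, against -0.39, -0.72 and -0.87 in Lgr5-negative replicates 1 to 3. The groups overlapped, while all 3 pairs were higher in Lgr5-positive cells (0.09, 0.30 and 0.40). The difference was 0.26 (95% interval -0.18 to 0.71, adjusted p in limma 0.9998; 0.290 with the block), and 0.16 on the dimmer probe. Of the 3 D cyclins 1, Ccnd1, thus fell with the block, against 5.61% of all genes, and neither Ccnd2 nor Ccnd3 passed.

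Cdkn2b, which encodes p15 and is induced by TGF-beta in epithelial cells, was the inhibitor with the largest difference. Its brighter probe had -2.48, -2.72 and -2.72 in Lgr5-positive replicates 1 to 3, against -1.16, -1.64 and -2.35 in Lgr5-negative replicates 1 to 3. As with Ccnd1, the Lgr5-positive arrays lay close together and the Lgr5-negative ones spread, here with replicate 3 closest to the Lgr5-positive arrays. Cy5 medians of that spot were 164, 203 and 197 on Lgr5-positive arrays and 569, 636 and 432 on Lgr5-negative arrays. The Lgr5-positive values lay near the median Cy5 of all probes there (137, 161 and 169). Unlike those of Ccnd1, these log2 ratios are thus limited by signals near background.

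The mean of Cdkn2b was -2.64 ± 0.14 in Lgr5-positive cells and -1.72 ± 0.60 in Lgr5-negative cells (SD, n = 3 each). The difference of -0.92 (SE 0.31, 95% interval -1.66 to -0.19), or 1.90-fold lower, had an adjusted p in limma of 0.401 with the group alone. Cdkn2b fell with the block (SE 0.19, adjusted p = 0.036), and its adjusted p was 0.072 without replicate 1 and 0.225 without replicate 2. A second Cdkn2b probe was well above background on only 2 of 6 arrays and was not tested. It had -0.78, -1.44 and -1.40 in Lgr5-positive replicates 1 to 3 and -1.14, -1.20 and -0.78 in Lgr5-negative ones, groups that overlap.

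Cdkn2a lies next to Cdkn2b and encodes p16Ink4a and p19Arf from separate first exons joined to common later exons. The array gives the same RefSeq transcript for both Cdkn2a probes. Probe sequences were not used, so it is not known whether the probes also read the other transcript. The values are therefore taken as those of the locus. The brighter probe had -4.00, -4.89 and -4.27 in Lgr5-positive replicates 1 to 3, against -4.20, -5.27 and -4.93 in Lgr5-negative replicates 1 to 3. The groups overlapped, but Lgr5-positive cells were higher in each pair, by 0.20, 0.38 and 0.66. The difference of 0.41 (95% interval -0.41 to 1.24) did not pass, with an adjusted p in limma of 0.9998 with the group alone and 0.135 with the block. It was -0.053 after quantile normalization between arrays and -0.048 under median centring, so its sign depends on the scaling. The dimmer probe, well above background on 3 of 6 arrays, had -1.86, -1.94 and -2.25 in Lgr5-positive replicates 1 to 3, against -2.39, -2.48 and -2.63 in Lgr5-negative ones. On that probe the groups did not overlap, with a difference of 0.49 that did not pass (adjusted p in limma over all kept probes 0.710, and 0.062 with the block, where 4.41% of kept probes passed). Averaged over the 6 arrays, Cdkn2a was 24.1-fold below the cell line reference on its brighter probe, the lowest log2 ratio of the 10 genes.

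Cdkn2c (p18) and Cdkn2d (p19Ink4d), the remaining INK4 genes, did not pass in either fit. Cdkn2c had -2.27, -2.28 and -2.19 in Lgr5-positive replicates 1 to 3, against -1.79, -1.87 and -2.17 in Lgr5-negative ones. These groups did not overlap, yet the gap in pair 3 was only -0.02, and the difference of -0.30 (95% interval -0.71 to 0.11) did not pass (adjusted p in limma 0.895; 0.270 with the block). Cdkn2d had -0.34, -0.42 and -0.68 in Lgr5-positive replicates 1 to 3, against -0.22, -0.58 and -1.05 in Lgr5-negative ones. Here the groups overlapped and the pairs disagreed in sign, with a difference of 0.14 (95% interval -0.45 to 0.72, adjusted p 0.9998).

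**Figure D3:**
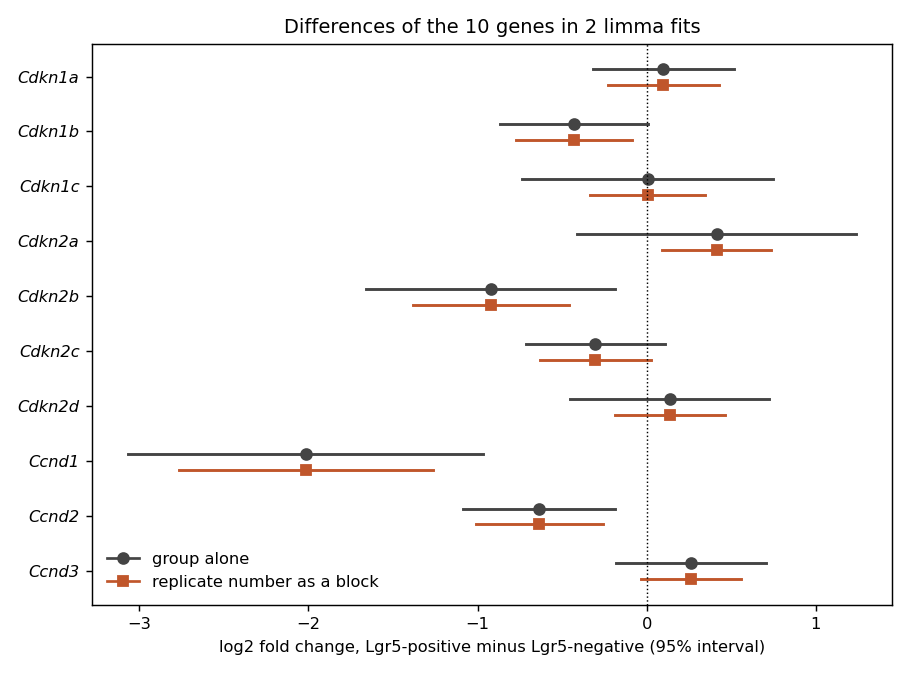
Log2 fold change of each gene, Lgr5-positive minus Lgr5-negative, with 95% intervals from limma with the group alone (dark circles) and with the replicate number as a block (orange squares). Ccnd1, Ccnd2 and Cdkn2b lie below 0 with both intervals, Cdkn1b only with the block, and Cdkn2a is above 0 only with the block; intervals are not adjusted for the number of genes tested.

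The CIP/KIP genes showed no increase in Lgr5-positive cells that passed the test. Cdkn1a, the p53 target p21, had 1.68, 1.84 and 1.50 in Lgr5-positive replicates 1 to 3, against 1.42, 1.62 and 1.68 in Lgr5-negative replicates 1 to 3. The groups overlapped and pair 3 had the other sign. The difference was 0.10 (95% interval -0.32 to 0.52, adjusted p in limma 0.9998; 0.746 with the block). Its brighter probe was read from 10 spots on 5 arrays and 9 on the other, and the SD over spots was 0.033 to 0.059, smaller than the SD of 0.17 among Lgr5-positive and 0.14 among Lgr5-negative arrays. A second, dimmer Cdkn1a probe differed by 0.19.

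The transcript of Cdkn1b, which encodes the p27 inhibitor, was lower on the Lgr5-positive arrays. It had -0.34, -0.32 and -0.41 in Lgr5-positive replicates 1 to 3, against -0.19, 0.10 and 0.30 in Lgr5-negative replicates 1 to 3. The groups did not overlap, the Lgr5-positive arrays were again nearly alike, and the Lgr5-negative array highest in Ccnd1 was also the highest in Cdkn1b. The difference of -0.43 (SE 0.18, 95% interval -0.87 to 0.0087) did not pass (adjusted p in limma 0.634; 0.142 with the block).

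Cdkn1c, the imprinted inhibitor p57, had 1.07, 1.95 and 0.92 in Lgr5-positive replicates 1 to 3, against 1.22, 1.63 and 1.08 in Lgr5-negative ones. The arrays of replicate 2 were the highest in both groups, and the groups overlapped. The difference was 0.0054 (95% interval -0.74 to 0.75 with the group alone and -0.34 to 0.35 with the block), with an adjusted p in limma of 0.9998.

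Relative to the cell line reference, 2 of the 10 genes, Cdkn1a and Cdkn1c, lay above it on all 6 arrays, by 3.08-fold and 2.48-fold on average. Below it on all 6 arrays were 6 genes, the 4 INK4 genes with Ccnd2 and Ccnd3. Cdkn1b and Ccnd1 lay above it on 2 arrays each, both Lgr5-negative. Since no dyes were swapped, the distance of a single gene from the reference is open to dye bias, which the comparison between the fractions shares across arrays.

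**Figure D4:**
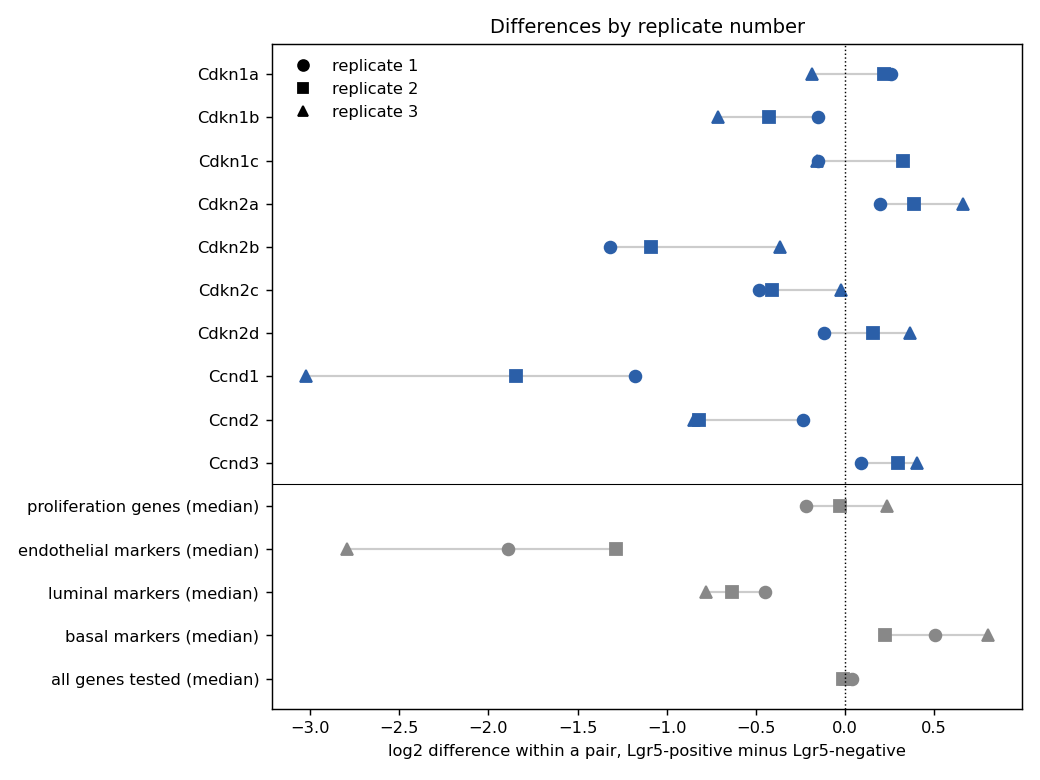
Difference within each replicate number, Lgr5-positive minus Lgr5-negative, in log2 units, for the 10 genes (blue) and for the medians of 4 gene lists and of all genes tested (grey). The endothelial median includes Tie1, which passed the filter only through the Lgr5-negative arrays. Ccnd1, Ccnd2, Cdkn1b, Cdkn2b and Cdkn2c are below 0 in all 3 pairs, Cdkn2a and Ccnd3 are above 0 in all 3 (not so under median centring, with means of -0.048 and -0.17), and Cdkn1a, Cdkn1c and Cdkn2d have pairs on both sides.

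Over the pairs, 5 genes were lower in all 3 and 2 were higher in all 3, so 7 of 10 kept one sign, against 44.3% of all genes (22.5% higher and 21.8% lower). The sizes differed between pairs, and replicate 3 had the largest difference in Ccnd1, Ccnd2 and Cdkn1b but the smallest in Cdkn2b and Cdkn2c. By Pearson correlation of log2 ratios over the 6 arrays, which share 2 groups and so rise and fall with them, the genes most like Ccnd1 were Myzap (r = 0.997), Iigp1 (r = 0.996) and Timeless (r = 0.996). Those most like Ccnd2 were Creld1 (r = 0.991), Tmem268 (r = 0.990) and Eya3 (r = 0.987).

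Proliferation genes are given beside the shares of all genes. Of 24 proliferation genes 0 passed limma's test with the group alone and 0 with the block, against 0.612% and 7.72% of all genes. Before adjustment, 2 of the 24 had p under 0.05 with the group alone, against 8.2% of all genes. With the block 5 of the 24 did so, against 21.3%. Whether the list departs from these shares was not tested. Their median log2 fold change was 0.02, with -0.22, -0.03 and 0.23 in pairs 1 to 3, and their mean log2 ratio was -2.19 to -1.93 on Lgr5-positive arrays and -2.29 to -1.68 on Lgr5-negative arrays. Mki67, which encodes the Ki-67 antigen of cycling cells, had -0.51 (adjusted p in limma 0.544, and 0.074 with the block). It was at -0.59 on a second probe and -0.98 under median centring. Mcm3, a subunit of the replicative helicase, had -0.49 (adjusted p in limma 0.547, and 0.113 with the block). It was at -0.98 under median centring and -0.31 without replicate 3. These arrays measure transcript levels and not division, and neither fraction is called quiescent here.

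For kinases and factors around the 10 genes, counts are set against all genes. Of all genes 0.612% passed with the group alone and 7.72% with the block. At an unadjusted p under 0.05 the shares of all genes were 8.2% and 21.3%. In the list of G1 kinases and E cyclins 0 of 7 passed with the group alone (1 at an unadjusted p under 0.05), and Ccne1, a cyclin that binds Cdk2, rose with the block (0.67, SE 0.23 with the group alone, adjusted p = 0.030 with the block), though it was at 0.20 under median centring. Ccne2 was not well above background in either fraction, and Cdk6 on none of the Lgr5-positive arrays. Of 18 pocket protein, E2F and MuvB genes 0 passed in either fit (0 and 3 at an unadjusted p under 0.05), with E2f4, an E2F of resting cells, at -0.40 (-0.65 under median centring and -0.21 in the Cy5 channel alone) and Lin9, a MuvB subunit, at 0.31 (-0.15 under median centring). Regulators of the inhibitors had 0 of 15 past the test in either fit (0 and 3 at an unadjusted p under 0.05). Among them Hes1, a Notch target, was at -0.84 (-0.38 without Lgr5-positive replicate 1) and Myc at 0.30 (-0.16 under median centring).

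Other p53 targets had 0 of 16 past the test with the group alone (1 at an unadjusted p under 0.05), against 0.612% and 8.2% of all genes. Their median was -0.08, and with the block 1 passed, against 7.72% of all genes. Sesn1, a stress-induced sestrin, fell by 0.61 (adjusted p = 0.042 with the block), with -1.04 under median centring and -0.37 in the Cy5 channel alone. Of 24 mitogen response genes 0 passed with the group alone (2 at an unadjusted p under 0.05), against the same 0.612% and 8.2%. With the block, where 7.72% of all genes passed, Jun, an AP-1 subunit, fell by 0.58 (adjusted p = 0.033). Jun was at -1.04 under median centring. Etv4, an ETS factor downstream of growth factor signalling, rose by 0.69 (adjusted p = 0.022 with the block). Etv4 was at 0.34 on a second probe and 0.23 under median centring.

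Antiproliferative genes moved in both directions. With the group alone 0 of 13 passed (4 at an unadjusted p under 0.05), against 0.612% and 8.2% of all genes. With the block 2 rose and 3 fell, against 2.1% and 5.61% of all genes. Gas1, a membrane protein named for its rise on growth arrest, rose by 1.06 (adjusted p = 0.0092), with 0.47 and 0.35 on other probes and 0.60 under median centring. Gas7 fell by 1.02 (adjusted p = 0.0052; -0.16 on a second probe), and Txnip, an inhibitor of thioredoxin, fell by 1.08 (adjusted p = 0.035; -0.13 on a second probe and -0.72 without Lgr5-negative replicate 3). Btg1, of the BTG/TOB family, fell by 0.67 (adjusted p = 0.038; -0.12 on a second probe, and -0.31 to -1.10 on leaving out single arrays), and Hexim1, an inhibitor of the elongation kinase P-TEFb, was the other gene that rose.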

How the data were processed

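RNA of 6 samples was measured on Agilent 2-colour arrays, sample in Cy5 and reference in Cy3 per the labels. Scanner output of each array, from version 11.0 of Feature Extraction by the submitters' processing notes, was deposited with the intensity of each spot and its local background and a log10 ratio, per the file headers. A deposited series table holds log2 ratios, centred per probe on the 6-array median; its scale matched the scanner ratios (r 0.920 to 0.950 after the same centring, same direction), column medians were -0.048 to 0.031, and its further normalization is unknown.

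Median signals were corrected with normexp (offset 50), normalized by loess within arrays, and averaged per probe in limma 3.58.1 (R 4.3.3), leaving out control spots and spots with outlier flags. Probes were named through RefSeq transcripts of a GRCm38.p6 table, used for names only because the array design cites mm9, and 20504 of 20847 mRNA accessions matched. Kept probes had Cy5 well above background on at least 3 arrays, and the brightest kept probe stood for a gene. Groups were compared with lmFit and eBayes, two-sided, with Benjamini-Hochberg adjustment over 15680 genes, or over 34528 kept probes for other probes. Simulated arrays of the same replicate number were given a shared deviation, so the simulation assumed the pairing and did not test it. On these simulated data the fit with the group alone recovered 0% of planted changes of 1 log2 unit and 56% of those of 2 log2 units. With the block it recovered 51% and 85%. A gene that did not pass is thus not shown to be unchanged. Precision is limited by the number of arrays.

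The members, the 13 gene lists and the rule for naming genes were chosen with earlier results of these data known. The rule names all members, in each list up to 4 genes past the threshold in either fit, or else the 2 with the lowest p, and the 3 genes most correlated with each of the 2 members of lowest p. Of the marker lists, the gene of lowest blocked p is given with its value, with Fbln1 and the basal calls beside it, choices made after values were seen, as was naming Hexim1.

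Replicate numbers 1 to 3 occur in both groups, and same-numbered arrays deviated together from their group means (correlations of 0.810, 0.819 and 0.675 across genes), so the numbers were taken to pair the arrays. Within a pair the arrays lay side by side on the slide, with the Lgr5-positive one first, so position and group cannot be told apart. In these correlations a shared place on the slide cannot be told apart from the replicate number either. The alternatives were the replicate block, no background subtraction, median centring, the scanner's and the deposited ratios, quantile normalization, the Cy5 channel alone, filters, probe averaging, array weights, another variance prior, and leaving out arrays or pairs. The labels name no batch, and one slide and one scan left no slide block to fit. Probe sequences were not used here.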

Additional observations from a re-analysis of the deposited data

How the results depend on the processing

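Each setting changed 1 choice; those combined with the block were added after seeing the data. With the group alone no member passed, except Ccnd1 with array weights (1 of 10, adjusted p = 0.039) or without Lgr5-negative replicate 1 (0.025), so leaving out arrays or pairs gave 0 to 1 members, and the replicate block gave 2. The count of genes was 96; it was 9 under median centring, 32 after quantile normalization between arrays, 44 among probes above background on all 6 arrays, 312 with array weights, 55 with a trended robust prior, 1210 with the replicate block and 0 to 371 on leaving out arrays or pairs. The count of 0 came from omitting pair 2, pair 3, or the Lgr5-positive array of pair 1 or of pair 3. Omitting an Lgr5-negative array gave 371 (pair 1), 5 (pair 2) and 21 (pair 3). Over all kept probes it was 35, and 1522 with the replicate block. In the blocked fit the 1210 became 5790 under median centring, 738 with the scanner's ratios, 753 with the deposited table and 326 to 1397 without 1 pair (326 without pair 2). The blocked count of members, 2, became 5 under median centring (Cdkn1b, Cdkn2b, Cdkn2c, Ccnd1 and Ccnd2, all lower, where 36.9% of all genes passed), and 0 without pair 2; it was 0 to 2 without 1 pair.

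Median centring moved the median of all genes to -0.29 and the lower share of blocked calls to 97.8%, against 72.7%. It turned the sign of Cdkn1a (-0.35), Cdkn1c (-0.22), Cdkn2a (-0.048), Cdkn2d (-0.33), Ccnd3 (-0.17), Lin9 (-0.15) and Myc (-0.16), in the blocked fit as well for the members. Relative to that median, Ccnd1 was at -2.30, Cdkn2b at -0.93, Ccnd2 at -0.77, Cdkn1b at -0.60, Cdkn2c at -0.45, Cdkn2a at 0.24, Ccnd3 at 0.12, Cdkn1c at 0.07, Cdkn1a at -0.06 and Cdkn2d at -0.04. Quantile normalization gave Cdkn2a -0.053 in both fits. On leaving out arrays or pairs Cdkn1c ranged from -0.31 to 0.20 (blocked -0.16 to 0.09) and Cdkn2d from -0.080 to 0.33. No setting turned the sign of Ccnd1 (-2.59 to -1.51), Ccnd2, Cdkn1b, Cdkn2b or Cdkn2c. The blocked calls of Ccnd1 and Cdkn2b held in all 11 other settings that keep the 6 arrays (adjusted p up to 0.033 and 0.049). The cause of these changes was not tested. Cdkn2b, the dimmer Cdkn2a probe and the dimmer Cdkn1a probe are limited by signals near background.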
